A study of Mus musculus with 8 samples.

Results

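The respiratory chain genes described here were the 90 genes of the authors' deposited table whose names begin with a stem of the nuclear-encoded subunits of complexes I to V (Nduf followed by a, b, c, s or v; Sdha to Sdhd; Uqcr; Cox4 to Cox8; Atp5), out of 17171 genes in all. A further 1 gene with a matching name was left out. By textbook role 78 of the 90 were counted as structural subunits of the complex they are named for. Of these, 36 were in complex I, 4 in complex II, 8 in complex III, 16 in complex IV and 14 in complex V. The other 12 were kept apart. They were 7 assembly factors of complex I (Ndufaf1 to Ndufaf7), Ndufa4, its relative Ndufa4l2, the supercomplex factor Cox7a2l, Atp5s and Atp5sl. Ndufa4 is named for complex I but now placed with complex IV. Atp5s and Atp5sl are not structural parts of ATP synthase.

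RNA came from the hippocampus of 2-month-old C57BL/6 mice. There were 4 control samples (Sumo2 f/f, both alleles flanked by loxP sites and no Cre) and 4 samples labelled knockout, named SUMO2-cKO, with the same alleles and Emx1-Cre. Cre driven from Emx1 acts in cells born in the dorsal forebrain, among them pyramidal neurons, granule cells and astrocytes, so interneurons, vessels and microglia keep the intact gene, and without a group that carries Cre alone its own effect cannot be told apart from the deletion. Sumo2 itself did not check the labels: it stood at a log2 fold change of 0.42 (standard error, SE, 0.252, adjusted p = 0.761 by DESeq2) in the authors' deposited table. In bulk tissue, fewer cells of a type and less RNA per cell cannot be told apart. The deposited values per sample carry names that match none of the sample labels and were not used, so levels, spreads over samples and the presence of hippocampal markers are not described, only differences between the groups with their SE.

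The respiratory chain sits in the inner mitochondrial membrane. Complexes I and II pass electrons from NADH and succinate to ubiquinone, complex III passes them on to cytochrome c, and complex IV hands them to oxygen, while complexes I, III and IV pump protons that drive ATP synthesis by complex V. Most subunits are encoded in the nucleus and imported, a small set is encoded in mitochondrial DNA, and neurons draw most of their ATP from this chain. The series compares expression between samples labelled SUMO2-cKO and control samples. Sumo2 is a gene for a modifier protein that is attached to many other proteins. For the respiratory chain the comparison gives the RNA difference of each gene between the genotypes. These are described complex by complex, without a test of any complex as a whole.

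No respiratory chain gene was called in either direction. Of the 90 members, 0 passed an adjusted p of 0.05 (DESeq2, Benjamini-Hochberg over all genes), where 1.5% of all 17171 genes did, 0.967% as higher and 0.53% as lower. An unadjusted p under 0.05 was reached by 1 member, Cox7c, against 8.37% of all genes. The members' log2 fold changes of knockout over control had a median of 0.02 and quartiles of -0.01 and 0.05 in the authors' deposited table, and all genes had a median of -0.00 and quartiles of -0.07 and 0.07. A positive value was held by 62 of the 90 members (68.9%) and by 49.9% of all genes. It was held by 69.3% of 75 mitochondrial ribosomal proteins and by 52.2% of 23 genes of mitochondrial protein import. Members share samples and are not independent of each other, so this share carries no test.

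The precision was enough to bound most members closely. The 95% interval lay wholly within a 1.2-fold change in either direction for 76 of the 90 members (84.4%), compared with 49.3% of all genes in the authors' deposited table. Within 1.1-fold it lay for 31 members (34.4%) and 15.7% of all genes, and within 1.5-fold for 81 members and 72.9%. Among genes with an SE under 0.1, the interval lay within 1.2-fold for 75 of 76 members, all but Atp5s, and for 88.9% of 9004 genes. Of 75 mitochondrial ribosomal proteins, 85.3% had an interval within 1.2-fold, and of 81 cytosolic ribosomal proteins 59.3%. The median SE was 0.0649 for the members and 0.0940 for all genes. A missed threshold does not show that levels were equal, and the interval of each gene gives the change that the data still allow.

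**Figure D1:**
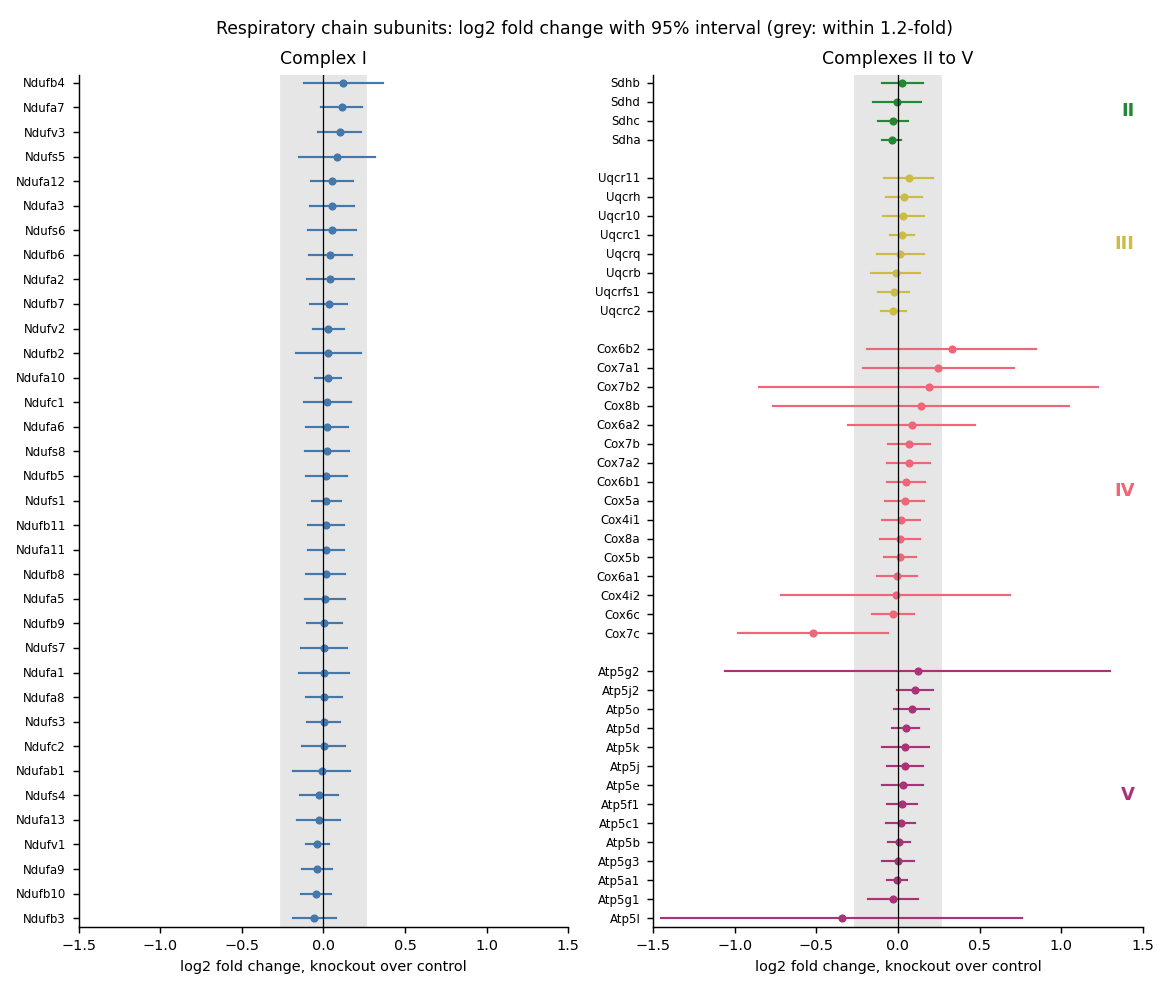
Log2 fold change of knockout over control (x axis) with its 95% interval for 77 structural subunits, complex I on the left and complexes II to V on the right, from the authors' deposited table. The grey band marks a change within 1.2-fold; the intervals of 66 of them lie inside it, and Cox7c is the 1 subunit whose interval leaves out 0.

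Complex I takes electrons from NADH and is the largest of the complexes. Its 36 structural subunits had a median log2 fold change of 0.02, from -0.06 to 0.12, in the authors' deposited table, with 28 above 0 and none called. The 3 nuclear core subunits that take in electrons were Ndufv1, which binds NADH, at -0.04 (SE 0.0352), Ndufv2 at 0.03 (SE 0.0481) and Ndufs1 at 0.02 (SE 0.0448). Of the ubiquinone arm, whose core subunits carry electrons on to ubiquinone, Ndufs3 stood at 0.00, Ndufs7 at 0.01 and Ndufs8 at 0.02 in the authors' deposited table (SE 0.0516 to 0.0724). For Ndufs3, the 95% interval ran from -0.10 to 0.10.

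The 29 accessory subunits of complex I, which stabilise and regulate the core, had a median of 0.02 with 23 above 0. The smallest p in complex I belonged to Ndufa7 at 0.11 (SE 0.0632, p = 0.0776, adjusted p = 0.710, DESeq2) in the authors' deposited table. Ndufb4 was the highest at 0.12 (SE 0.123) and Ndufb3 the lowest at -0.06 (SE 0.0673), and neither interval left out 0. Ndufs4, whose loss in mice gives a Leigh-like encephalopathy, stood at -0.03 (SE 0.0589) in the authors' deposited table. The 7 assembly factors, which build the complex and then leave it, had a median of -0.01 with 3 above 0, from Ndufaf7 at -0.04 (SE 0.0661) to Ndufaf6 at 0.07 (SE 0.117).

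Complex II, succinate dehydrogenase, is the complex with no mitochondrially encoded subunit and also an enzyme of the tricarboxylic acid cycle. Its 4 genes had a median of -0.02 in the authors' deposited table, the 1 negative median among the complexes, with 1 of the 4 above 0. Sdha, the flavoprotein that oxidises succinate, had the smallest SE of all members, with a log2 fold change of -0.04 (SE 0.0292, adjusted p = 0.926, DESeq2) and a 95% interval of -0.10 to 0.02. The iron-sulfur subunit Sdhb stood at 0.03 (SE 0.0632), and the membrane anchors Sdhc and Sdhd at -0.03 (SE 0.0476) and -0.01 (SE 0.0757), in the authors' deposited table. None of the 4 intervals left out 0.

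Complex III had 8 structural subunits among the members, with a median of 0.02, between -0.03 and 0.06, in the authors' deposited table. Cytochrome c1 (Cyc1), whose name lies outside the stems, was counted with the electron carriers, at 0.01 (SE 0.0511). Uqcrfs1, the Rieske iron-sulfur protein that takes electrons from ubiquinol, stood at -0.03 (SE 0.0485). The large core proteins Uqcrc1 and Uqcrc2 lay on either side of 0, at 0.02 (SE 0.0380) and -0.03 (SE 0.0392). The small accessory subunit Uqcr11 was the highest and had the smallest p of the complex, at 0.06 (SE 0.0753, p = 0.389, adjusted p = 1.0, DESeq2) in the authors' deposited table. All 8 intervals lay within a 1.2-fold change.

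Complex IV, cytochrome c oxidase, was the most spread of the complexes, from -0.52 to 0.33 with a median of 0.04 over 16 genes in the authors' deposited table. Its nuclear subunits come in forms used by most tissues and forms confined to a few, and apart from Cox7c the spread lay in the latter. The 10 widely expressed subunits had a median of 0.02 and 9 of them lay between -0.03 and 0.07. Among these, Cox4i1, which sets the response of the enzyme to ATP, stood at 0.02 (SE 0.0596), Cox5a at 0.04 (SE 0.0612) and Cox5b at 0.01 (SE 0.0503) in the authors' deposited table. The tenth was Cox7c.

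The 6 tissue-restricted isoforms had a median of 0.16 with SEs between 0.2 and 0.530, against a median of 0.0649 for all members, and none had an unadjusted p under 0.05 in the authors' deposited table. In each pair the isoform used by most tissues was the more precisely measured. Cox6b1 stood at 0.05 (SE 0.0602), beside the testis form Cox6b2 at 0.33 (SE 0.264), which was the highest value of any member and had an interval of -0.19 to 0.85. Cox7a2 stood at 0.06 (SE 0.0673) beside the heart and muscle form Cox7a1 at 0.25 (SE 0.235), and Cox6a1 at -0.01 (SE 0.0629) beside the heart and muscle form Cox6a2 at 0.08 (SE 0.2). Cox8a stood at 0.01 (SE 0.0630) beside Cox8b at 0.14 (SE 0.463), Cox7b at 0.07 (SE 0.0657) beside Cox7b2 at 0.19 (SE 0.530), and Cox4i1 beside the oxygen-sensitive lung form Cox4i2 at -0.01 (SE 0.358), all in the authors' deposited table. None of these values separated an isoform from 0. Ndufa4, found in complex IV, stood at 0.03 (SE 0.0585) and its hypoxia-induced relative Ndufa4l2 at 0.25 (SE 0.274). Cox7a2l, listed as a supercomplex factor, stood at -0.09 (SE 0.0718, p = 0.210, DESeq2) in the authors' deposited table.

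Cox7c, a small membrane subunit of complex IV (ENSMUSG00000017778, chromosome 13, 86044816 to 86046904, minus strand, GRCm38), had the lowest value and the smallest p of all members. Its log2 fold change was -0.52 (SE 0.235, 95% interval -0.98 to -0.06, p = 0.0262, adjusted p = 0.443, DESeq2) in the authors' deposited table. The estimate is a change of -30.4%, and it did not pass the test over all genes. Its SE was also the widest of the 10 widely expressed subunits of the complex, the others lying between 0.0503 and 0.0673.

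Cox7c shares its coding sequence with processed pseudogenes, which are reverse-transcribed copies elsewhere in the genome. Of the 50-base windows in the annotated coding sequence of Cox7c, 81.9% also occur in transcripts of other genes. The genes that share any window with it are 3 pseudogenes. The copy that shares most windows, Gm10012 on chromosome 17 (25901856 to 25902227, GRCm38), differs from the 189-base coding sequence without its stop codon at 2 bases. The 81.9% counts windows shared with any of the 3 pseudogenes, and a window that covers a differing base is not shared with Gm10012. Which reads can be assigned to 1 gene was not tested. The full coding stretch of each is shown. Capitals mark the bases that differ, and the sequences are GENCODE M21 transcripts.
Cox7c: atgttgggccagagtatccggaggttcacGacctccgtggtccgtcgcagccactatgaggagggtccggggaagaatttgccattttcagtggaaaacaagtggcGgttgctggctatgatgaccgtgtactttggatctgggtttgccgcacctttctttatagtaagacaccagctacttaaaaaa
Gm10012: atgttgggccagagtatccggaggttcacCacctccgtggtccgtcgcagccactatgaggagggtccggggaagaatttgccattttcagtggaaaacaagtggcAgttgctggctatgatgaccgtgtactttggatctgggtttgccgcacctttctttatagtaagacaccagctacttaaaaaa

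Complex V, ATP synthase, had 14 structural subunits among the members, with a median log2 fold change of 0.03 in the authors' deposited table, 10 of them above 0. The subunits of the head that makes ATP and of its stalk stood at -0.01 for Atp5a1 (SE 0.0314), 0.01 for Atp5b (SE 0.0348), which carries the catalytic sites, and 0.02 for the rotating stalk subunit Atp5c1 (SE 0.0466), and the interval of Atp5a1 ran from -4.52% to 3.97%. The 3 members that belong to the peripheral stalk, which holds the head still, were above 0, and none was called. They stood at 0.02 for Atp5f1 (SE 0.0466), 0.04 for Atp5j (SE 0.0562) and 0.08 for Atp5o (SE 0.0551). Atp5j2, a small membrane subunit, had the smallest p of the complex, at 0.11 (SE 0.0562, p = 0.0602, adjusted p = 0.643, DESeq2) in the authors' deposited table.

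The proton-carrying c-ring is encoded by 3 genes whose mature proteins are the same and whose import sequences differ. Atp5g1 stood at -0.03 (SE 0.0783), Atp5g3 at -0.00 (SE 0.0495) and Atp5g2 at 0.12 (SE 0.601) in the authors' deposited table. Atp5g2 (chromosome 15, 102662864 to 102672352, GRCm38) had the widest SE of all members, and its interval, -1.06 to 1.30, allows a change of more than 2-fold either way. Atp5l, the membrane subunit g (chromosome 9, 44912557 to 44920742), came next, with the lowest value of complex V at -0.34 (SE 0.565, 95% interval -1.45 to 0.76, adjusted p = 1.0, DESeq2) in the authors' deposited table. All of the coding windows of both genes, 100%, occur in other annotated genes. Over whole transcripts, windows are shared with 3 other genes for Atp5g2, of which 2 are pseudogenes, and with 13 for Atp5l, of which 12 are pseudogenes. The closest copy of Atp5g2, Gm10175 on chromosome 7, matched its 438-base coding sequence without a difference, and the closest copy of Atp5l, Gm10221 on chromosome 5, matched all 309 bases. The first 150 bases are shown as an example of a stretch in which reads of a gene and its copy look the same.
Atp5l and Gm10221: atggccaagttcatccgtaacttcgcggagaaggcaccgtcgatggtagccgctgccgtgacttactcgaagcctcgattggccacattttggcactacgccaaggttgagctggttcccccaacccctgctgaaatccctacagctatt

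Shared sequence and a wide SE did not always go together. Of the 14 members with an SE of 0.1 or more, 7 were the tissue-restricted isoforms and Ndufa4l2, with 0% of windows shared. Cox7c, Atp5l and Atp5g2 were the widest of the rest, ahead of Ndufb4 (SE 0.123, 100% of coding windows shared), Ndufs5 (SE 0.118, 72.5%), Ndufaf6 (SE 0.117, 0%) and Ndufb2 (SE 0.103, 37.2%). Ndufab1 and Atp5g1, with 99.8% and 99.7% of coding windows shared, had SEs of 0.0885 and 0.0783. Of all their transcript windows, however, only 9.53% and 10.2% were shared. The same share was 23.0% for Cox7c, 38.3% for Atp5g2 and 68.5% for Atp5l. Over whole transcripts, Spearman's rho between SE and the share of windows was 0.09 over the 90 members, which have library and depth in common. How the counting treated reads that fit several places is not stated by any source at hand, so the values of Cox7c, Atp5l, Atp5g2 and Ndufb4 are uncertain. The part of shared sequence in these SEs was not tested.

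**Figure D2:**
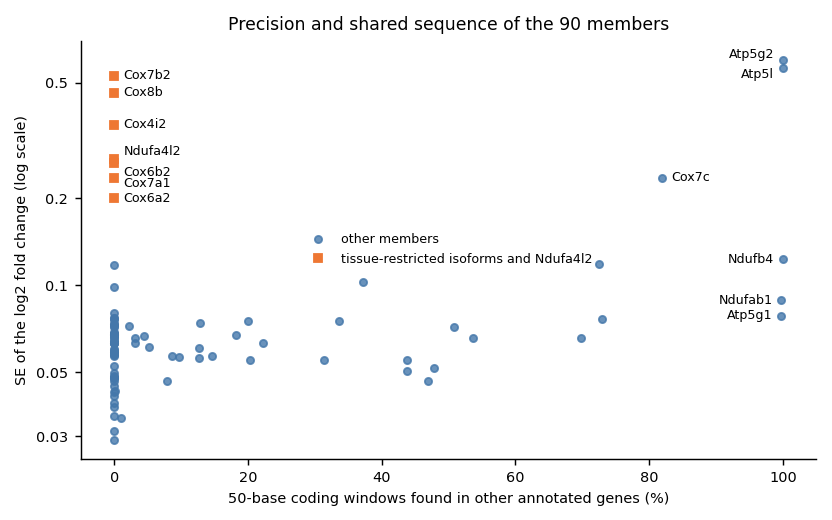
SE of the log2 fold change (y axis, log scale) against the share of 50-base coding windows that also occur in other annotated genes (x axis, percent) for the 90 members. Squares are the 6 tissue-restricted isoforms of complex IV and Ndufa4l2, all at 0% with SEs between 0.2 and 0.530; Cox7c, Atp5l and Atp5g2 stand apart at 81.9% and 100%.

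Few of these copies had rows of their own in the authors' deposited table. Of copies that hold at least 5% of a member's windows, 4 did, and none was called. The pseudogene Gm6969, a copy of Cox7a2l, stood at 1.07 (SE 0.659, adjusted p = 0.796, DESeq2), and the copies of Atp5g1, Atp5o and Ndufs5 at 0.05 (SE 0.253), 0.15 (SE 0.405) and 0.06 (SE 0.371) in the authors' deposited table.

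The members' test statistics, which are the log2 fold changes in units of their SE, were gathered more tightly around 0 than those of the table as a whole. Their standard deviation was 0.689, compared with 1.19 for all genes of the authors' deposited table. A statistic between -1 and 1 was held by 78 members (86.7%) and by 68.5% of all genes. Among genes with an SE under 0.1 the shares were 88.2% of 76 members and 67.2% of 9004 genes. The tightness was not particular to the chain. For 75 mitochondrial ribosomal proteins the standard deviation was 0.693, with 85.3% between -1 and 1. For 16 glycolysis genes the values were 1.07 and 68.8%. Members of a chain share samples, so these shares describe the set and carry no test. By complex, 33 of 36 genes of complex I, 3 of 4 of complex II, 8 of 8 of complex III, 13 of 16 of complex IV and 11 of 14 of complex V lay between -1 and 1.

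**Figure D3:**
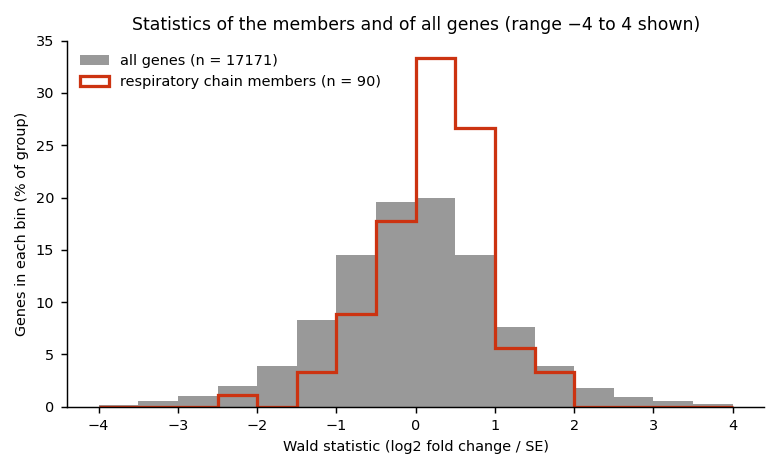
Wald statistic (x axis) of the 90 members (red outline) and of all 17171 genes (grey) in the authors' deposited table, as percent of each group in bins of the statistic (y axis). The members sit closer to 0, with 86.7% between -1 and 1 against 68.5% of all genes, and most of them lie just above 0.

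The other parts of the machinery gave no call either. Of the 13 subunits encoded in mitochondrial DNA, 7 had rows, with a median of 0.03 in the authors' deposited table and 0 called. The highest was mt-Nd1 at 0.10 (SE 0.0576, adjusted p = 0.769, DESeq2), followed by mt-Nd2 at 0.07 (SE 0.0542); mt-Co1, the catalytic subunit of complex IV, stood at -0.01 (SE 0.0573) and mt-Cytb, the catalytic subunit of complex III, at 0.04 (SE 0.0526). The nuclear and the mitochondrial genes of the chain had medians of 0.02 and 0.03.

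Electron carriers, meaning cytochrome c, cytochrome c1, the ubiquinone synthesis enzymes and the electron transfer flavoproteins, had a median of -0.02 over 18 genes with 0 called in the authors' deposited table. A further 34 assembly factors had a median of 0.00 and 0 called, with Cox10, which makes heme for complex IV, the 1 with an unadjusted p under 0.05, at -0.15 (SE 0.0674, adjusted p = 0.472, DESeq2). Partners of ATP synthase had a median of -0.02 over 9 genes, with its inhibitor Atpif1 at -0.01 (SE 0.0596), the phosphate carrier Slc25a3 at -0.02 (SE 0.0495) and the small subunit Usmg5 at 0.22 (SE 0.126, adjusted p = 0.748, DESeq2) in the authors' deposited table.

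Genes that feed or build mitochondria were also close to 0. The tricarboxylic acid cycle and pyruvate dehydrogenase had a median of -0.01 over 16 genes, mitochondrial protein import of 0.01 over 23 and mitochondrial ribosomal proteins of 0.02 over 75, each with 0 called in the authors' deposited table. The regulators of mitochondrial biogenesis had a median of 0.01 over 14 genes. Ppargc1a, the coactivator that raises respiratory genes, stood at 0.00 (SE 0.0547), the transcription factor Nrf1 at -0.00 (SE 0.0705), Gabpa at 0.04 (SE 0.0547) and Tfam, which packs and transcribes mitochondrial DNA, at 0.01 (SE 0.0569), in the authors' deposited table. Outside the mitochondrion, glycolysis had a median of 0.02 over 16 genes and cytosolic ribosomal proteins of 0.01 over 81, with 0 called in either.

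Some of the cell type marker lists lay farther from 0. All 10 oligodendrocyte markers were negative, from -0.55 to -0.34 with a median of -0.43, and 2 of them, Ermn and Mog, were called lower (0.53% of all genes were) in the authors' deposited table; neither reached a 1.5-fold change. Endothelial markers had a median of 0.17 over 7 genes, all positive, pyramidal neuron markers of 0.04 over 8, astrocyte markers of 0.04 over 8, microglia markers of -0.03 over 8 and interneuron markers of -0.07 over 9, with 0 called in each. Choroid plexus markers, from an epithelium rich in mitochondria, had a median of -0.21 over 7 with a median SE of 0.509, and 4 of 8 muscle markers had rows, with a median of -0.08. The members' medians by complex lay between -0.02 and 0.04. The part of these cell types in the members' values was not tested.

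**Figure D4:**
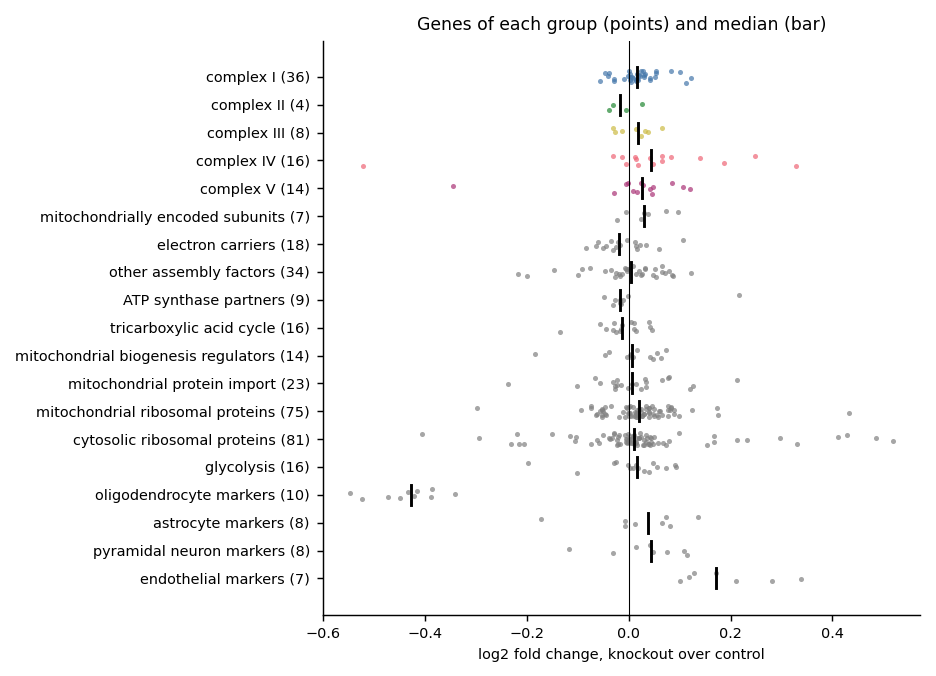
Log2 fold change of knockout over control (x axis) of each gene (points) and the median (bar) for complexes I to V and for the comparison and marker lists, with the number of genes in parentheses, from the authors' deposited table. The medians of the complexes lie between -0.02 and 0.04, and that of the oligodendrocyte markers at -0.43.

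Binding motifs in promoters, among them that of Nrf1, were not used in the choice of genes. Each of those searched was held by a minority of the members looked up. RefSeq promoter windows (250 bases before to 50 after the start, GRCm38.p6) were matched for 75 of the 90 members. The Nrf1 core GCGCATG, searched on both strands, was present for 15 members (20%) and for 7.18% of 12087 protein-coding genes of the table with a window of the same length. The 15 members had a median log2 fold change of 0.02, with 12 above 0 and 0 called, and the 60 without it of 0.02 as well, in the authors' deposited table. Stretches from 4 complexes are shown, written along the gene's strand and ending at or before the start, with the core in capitals; for Sdhb it lies on the opposite strand.
Ndufa11, complex I, chr17:56717672-56717738, plus strand: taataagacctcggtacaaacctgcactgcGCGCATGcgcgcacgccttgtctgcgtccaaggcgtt
Sdhb, complex II, chr4:140961188-140961254, plus strand: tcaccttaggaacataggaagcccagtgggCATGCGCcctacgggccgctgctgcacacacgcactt
Cox6a1, complex IV, chr5:115349084-115349150, minus strand: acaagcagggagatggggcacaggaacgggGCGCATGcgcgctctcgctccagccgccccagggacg
Atp5k, complex V, chr5:108434413-108434479, minus strand: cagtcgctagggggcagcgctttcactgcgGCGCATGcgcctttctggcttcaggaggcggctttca

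The genes with these stretches stood at 0.01 for Ndufa11 (SE 0.0570), 0.03 for Sdhb (SE 0.0632), -0.01 for Cox6a1 (SE 0.0629) and 0.05 for Atp5k (SE 0.0725) in the authors' deposited table. The YY1 core AAGATGG, on both strands, was present for 12 of the 75 members (16.0%) and 7.77% of the 12087 genes. The ETS core CCGGAAG, bound by Gabpa, was present for 16 members (21.3%), a share near the 17.4% of the genes. With 1 more letter at the end, the share was higher in members than in all genes for 8 of the 12 longer forms of the 3 cores. The order turned for the ETS core followed by T, at 5.33% of members and 7.79% of genes. That is the most frequent of the longer ETS forms over all genes, so the order for ETS depended on the next letter. For the Nrf1 core followed by C, its most frequent longer form, the shares were 16% of members and 5.39% of genes. For the YY1 core followed by C, again the most frequent, they were 14.7% and 4.60%. Rarer forms were held by no member. They were the Nrf1 core followed by G, at 0% and 0.637%, and the YY1 core followed by A, at 0% and 1.37%, or by T, at 0% and 0.877%. With so small a share over all genes, 0 of 75 members says little about the order. The Nrf1 core shared 6 members' promoters with the ETS core and 1, that of Ndufb8, with the YY1 core, and the ETS and YY1 cores shared 1, that of Atp5j. Median log2 fold changes in the authors' deposited table were 0.02 for members with the YY1 core, Cox7c among them, and 0.03 for those with the ETS core, with 0 called in either. A match describes the letters of the window only.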

How the data were processed

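RNA of 8 hippocampus samples, 4 per genotype, was sequenced with a stranded mRNA kit, per the labels. Per the submitters' processing notes, the tools were cutadapt, Trim Galore, STAR, HTSeq and DESeq2. The sources used here give no versions, build, annotation or strand setting. The deposited table gives, per the file headers, the authors' log2 fold change (knockout over wild type), Wald statistic (a score), p-value and adjusted p-value of each gene. A further 8 columns of normalized values match no sample label and were used in no step. Depth is therefore unknown, and precision is given by the SE.

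The planned design used the authors' comparison where only that could be used, so no gene-level test was run here. Dividing the log2 fold change by the statistic gave the SE, from which normal 95% intervals were made. Recomputed p-values differed from the deposited ones by at most 2.83e-15 and Benjamini-Hochberg values by at most 9.58e-15. A call is an adjusted p under 0.05. The Benjamini-Hochberg step and intervals of this form were tried on simulated normal values with the same SEs. The window, motif and group counts were not tested in that way. The labels do not say that samples came from separate animals, so the spread behind a p-value may be technical.

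Members, roles and lists were chosen with earlier results of these data known. The named genes are the highest, the lowest and the smallest p per complex, the core subunits and the isoform sets, apart from 1 that is not reported here, with the markers and Ndufs4, Usmg5, Cox10 and the assembly factors named added after their values were seen. The 1.2-fold band was chosen after the values were seen. So were the 7-letter motif cores, which replaced longer forms already counted. Shared windows are exact 50-base matches of coding transcripts in GENCODE M21 (GRCm38), in which 90 of 90 members matched by identifier. Work was done in Python 3.11.15 with pandas 2.3.3 and scipy 1.17.1, and figures were drawn in matplotlib 3.10.9 with numpy 2.4.6.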

Additional observations from a re-analysis of the deposited data

How the results depend on the processing

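The counts of called members and of called pathway genes kept their values under the settings named here. The medians by complex moved by less than the median SE of their genes, for example 0.0605 for complex III and 0.0665 for complex IV. That yardstick is wide, as it exceeds the size of each complex's median. For complex III the value went from 0.0189 to 0.00590 with the weighted mean, and for complex IV from 0.0446 to 0.0245. The number of called members was 0 with an adjusted p under 0.1. It was also 0 with adjustment over protein-coding genes or over genes with an SE of at most 0.25. Centring on the median of all genes gave 0 too, but that median was only -0.000225. A fold of at least 1.5 in addition and Bonferroni adjustment can only remove calls, so their counts of 0 were fixed in advance. The pathway lists gave 0 under each of these settings as well. The 2 called oligodendrocyte markers, recounted under these settings after seeing the data, became 0 with the added fold and with Bonferroni adjustment and stayed 2 in number under the others. Over these settings the adjusted p of the 43 named members ranged from 0.376 to 1. The median log2 fold change ranged from 0.01 to 0.02 for complex I, -0.03 to -0.02 for complex II, 0.01 to 0.02 for complex III, 0.02 to 0.06 for complex IV and 0.02 to 0.03 for complex V. Those ranges cover every gene matching the names, an SE of at most 0.25, a weighted mean, centring, Ndufa4 counted with complex IV, and leaving out members with 20% or more of windows shared, the last chosen after seeing the data. No paired analysis was possible because no result here comes from values of single samples. For the same cause other normalizations, pseudocounts, filters and the omission of each library were planned and not run. What depth limits is seen only in the SE, which was 0.1 or more for 14 of the 90 members.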
